A study of Homo sapiens with 8 samples.

Results

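The nuclear genes for the subunits of the mitochondrial respiratory chain and of ATP synthase were followed in NALM6, a cell line established from a human acute lymphoblastic leukaemia of B-cell precursors. They were taken by symbol: NDUFA, NDUFB, NDUFC, NDUFS and NDUFV genes, SDHA to SDHD, UQCR genes, COX4 to COX8 genes and ATP5 genes. This gave 89 genes of 27424 in the all-read table, and 79 of the 89 were also in the table of converted reads, which holds 6993 genes. Complex I had 36 genes, complex II 4, complex III 8, complex IV 17 and complex V 15. NDUFA4, a former complex I subunit now placed in complex IV, and NDUFA4L2 were kept as a pair of their own. A further 7 names fit the rule without being ordinary subunit genes, namely the pseudogene ATP5EP2, the copies ATP5L2 and UQCRHL, the read-through gene ATP5J2-PTCD1, and ATP5S, ATP5SL and COX4NB, older names of DMAC2L, DMAC2 and EMC8. The term chain genes below stands for all 89 genes or those of them tested, these 7 names included. Values by complex and promoter counts leave the 7 out.

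The libraries came from 2 lines with a doxycycline-inducible transgene for HMGN1, a small nucleosome-binding chromatin protein. The transgene was either wild type or the S20,24E mutant, which is deficient in nucleosome binding. Of the 8 libraries, 3 are wild-type cells given vehicle (vehicle A to C), 3 are wild-type cells given 100 ng/ml doxycycline for 6 h (induced wild type A to C) and 2 are mutant cells given the same doxycycline treatment (induced mutant A and B). All were labelled with 100 µM 4-thiouridine over the final 5 h, and newly made RNA was read from T-to-C conversion (SLAM-seq). No vehicle-treated mutant cells were analysed here, so the line and doxycycline cannot be told apart in that group, and an effect of doxycycline itself cannot be told apart from that of HMGN1 in either induced group. The labels call the libraries biological replicates without naming separate cultures, so p-values measure the spread between these libraries. The question was whether HMGN1 induction changed the level or the labelling of these genes.

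Complex I, the NADH dehydrogenase, and complex II, succinate dehydrogenase, pass electrons to ubiquinone. Complex III carries them to cytochrome c and complex IV, cytochrome c oxidase, to oxygen, and complex V, ATP synthase, uses the resulting proton gradient. Complexes I, III, IV and V mix subunits of the nuclear and the mitochondrial genome, while complex II is wholly nuclear, and nuclear genes of the chain are known targets of the transcription factors NRF1, GABPA (an ETS factor) and YY1.

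The core letters of at least 1 of these factors stood in the promoters of a share of the genes of every complex. RefSeq promoter windows (GRCh38.p14, 250 bases before to 50 after the annotated start) were found for 68 genes of complexes I to V and the NDUFA4 pair. The letters GCGCATGCG (NRF1) stood on either strand of 10 of the 68 windows (14.7%), against 2.10% of 27305 promoters of the table and 4.56% of 5088 promoters of genes with a mean of at least 10 CPM in these cells. CCGGAAG (ETS) stood in 19 (27.9%), against 10.7% and 23.6%, and AAGATGGC (YY1) in 11 (16.2%), against 3.03% and 7.39%. Of the YY1 matches only those of ATP5F1 and ATP5J began before the annotated start. The others began 10 to 38 bases after it, in the transcribed part of the window. At least 1 of the 3 motifs stood in 33 windows (48.5%), against 14.6% and 32.3%. By complex these were 14 of 31 windows for complex I, 2 of 3 for II, 4 of 7 for III, 5 of 14 for IV and 8 of 11 for V. The 14 of complex IV include COX6A2, COX6B2, COX7B2 and COX8C, which had under 1 CPM and no motif. Among the 63 windows of chain genes of at least 10 CPM, the set like the 5088, the shares were 15.9% (NRF1), 30.2% (ETS) and 17.5% (YY1). At least 1 motif stood in 52.4% of the 63. NRF1 letters stood in 0 of the 7 windows of complex III and YY1 letters in 0 of the 14 of complex IV. A match is a description of the letters and not a measured site, and the NRF1 letters nearly equal their own reverse complement, so that matches on both strands overlap. An example each of complexes I, III and V and a pair of complex IV are shown to let these letters be seen in place, as the longest stretch before the start that no GENCODE 29 exon covers. They are NDUFB4 at chr3:120596086-120596308 (+), UQCR11 at chr19:1605491-1605712 (-), COX5B at chr2:97645812-97646039 (+), COX6A1 at chr12:120437863-120438089 (+) and ATP5H at chr17:75046986-75047183 (-), 5′ to 3′ along the gene, with the motif letters in capitals.
NDUFB4: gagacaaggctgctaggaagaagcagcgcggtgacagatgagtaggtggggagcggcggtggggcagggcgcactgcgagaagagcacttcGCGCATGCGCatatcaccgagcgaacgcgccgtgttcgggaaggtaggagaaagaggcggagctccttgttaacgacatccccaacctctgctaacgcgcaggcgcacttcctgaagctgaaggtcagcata
UQCR11: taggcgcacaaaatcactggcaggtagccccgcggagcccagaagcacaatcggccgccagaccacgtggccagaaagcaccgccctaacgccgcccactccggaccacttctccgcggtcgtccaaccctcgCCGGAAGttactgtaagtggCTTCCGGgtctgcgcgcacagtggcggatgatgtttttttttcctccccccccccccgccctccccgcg
COX5B: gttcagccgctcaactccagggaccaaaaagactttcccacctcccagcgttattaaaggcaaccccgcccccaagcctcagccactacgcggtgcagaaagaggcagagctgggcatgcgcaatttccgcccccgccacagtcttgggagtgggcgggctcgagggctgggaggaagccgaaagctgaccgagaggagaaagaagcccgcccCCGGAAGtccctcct
COX6A1: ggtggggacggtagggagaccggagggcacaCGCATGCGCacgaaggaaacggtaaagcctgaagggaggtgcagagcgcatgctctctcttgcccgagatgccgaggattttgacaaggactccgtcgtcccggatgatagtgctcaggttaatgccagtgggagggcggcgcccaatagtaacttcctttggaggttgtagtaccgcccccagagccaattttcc
ATP5H: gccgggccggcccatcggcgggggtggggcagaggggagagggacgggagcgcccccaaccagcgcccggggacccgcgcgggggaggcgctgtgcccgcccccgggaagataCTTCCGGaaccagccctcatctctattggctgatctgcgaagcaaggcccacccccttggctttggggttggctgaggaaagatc
NDUFB4 and COX6A1 show NRF1 letters, and UQCR11, COX5B and ATP5H show ETS letters. UQCR11 has a pair of them on opposite strands. COX6A1 and COX5B each hold a further ETS match nearer the start, outside the stretch printed.

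The chain genes were abundant. A total of 83 genes had a mean of at least 1 CPM (reads scaled to the size of the library) and 81 of at least 10 CPM. The reads behind the 81 ranged from 54 for NDUFA5 in 1 library to 12714 for ATP5B in another. Summed CPM of the 89 genes ran from 7182 in induced wild type C to 11708 in vehicle A, with reads of overlapping genes counted for each. To compare genes, CPM was divided by the spliced length in kb, taken from GENCODE 29. On this scale the median was 276 for complex IV, 184 for complex V, 142 for complex III, 94.8 for complex I and 35.9 for complex II, against 11.1 for all 6060 genes of at least 10 CPM with a length. The order IV, V, III, I, II was the same in 8 of 8 libraries. It was also the same with the longest transcript of each gene, where the medians were 150.1, 93.5, 76.7, 60.4 and 25.6.

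**Figure D1:**
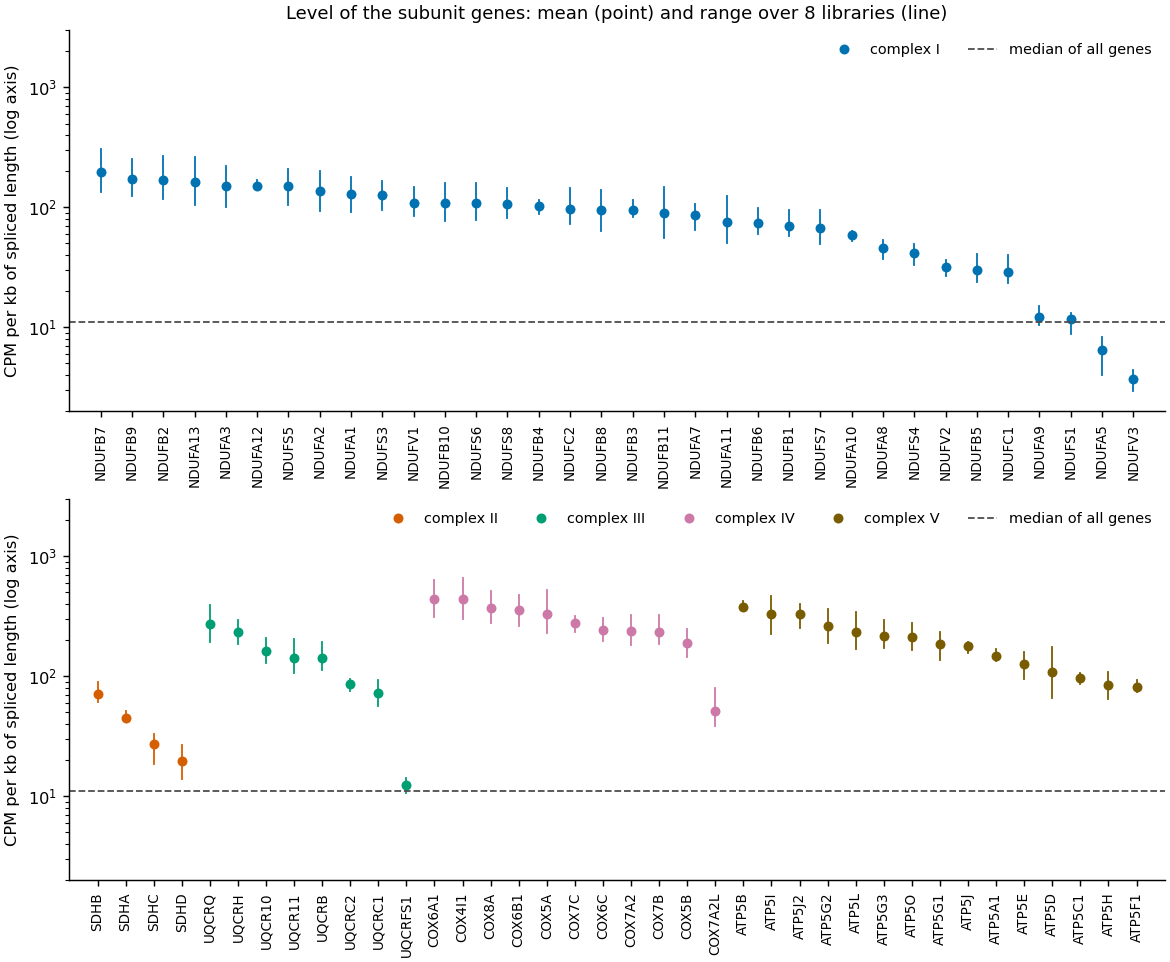
Level of the subunit genes with a mean of at least 10 CPM, 1 left out, as CPM per kb of spliced length on a log axis; points are means and lines the range over the 8 libraries, the dashed line is the median of all genes (11.1). Complex IV and V genes sit highest, up to 445 for COX6A1, and NDUFV3 (3.72) and NDUFA5 (6.49) sit under the dashed line.

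In complex V the catalytic beta subunit ATP5B had the highest CPM of all chain genes, at 688, 722 and 716 CPM in vehicle A to C, 700.1, 667 and 653 in induced wild type A to C, and 661 and 774 in induced mutant A and B. These values overlap between all groups and differ by 1.19-fold from lowest to highest. The alpha subunit ATP5A1 followed at a mean of 309.9 CPM over the 8 libraries, the epsilon subunit ATP5E at 237 and ATP5G2, one of the genes for the c-ring subunit, at 215, with the stalk subunit ATP5H lowest at 49.3. The other c-ring genes, ATP5G3 and ATP5G1, encode the same mature subunit and had 182 and 99.2 CPM.

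In complex IV the order by mean CPM was COX4I1 (348), COX6A1 (254), COX6B1 (203) and COX5A (190.3). Per kb, COX6A1 (445) and COX4I1 (438) were the highest of all chain genes with the lengths used. The rank of single genes depends on the transcripts taken. ATP5E, for example, was given 1878 bases, while a coding transcript of it has 697. The complex is known for subunits with tissue or testis isoforms, and here the ubiquitous form made up nearly all reads. COX4I2 had 0 reads in all 8 libraries, which allows up to 0.169 to 0.376 CPM by library (3 reads, counting error only), beside 348 CPM for COX4I1. COX6A2, COX6B2, COX7A1, COX7B2 and COX8C had means of 0.0108 to 0.0903 CPM, with at most 3 reads in a library, beside 254, 203, 114, 143 and 188 CPM for COX6A1, COX6B1, COX7A2, COX7B and COX8A. NDUFA4L2, known as a hypoxia-inducible form, had 1.95 CPM beside 94.9 for NDUFA4. COX7A2L, a factor that joins complexes into supercomplexes, was the lowest of the detected complex IV genes at 57.5.

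In complex III the small subunit UQCRQ (159.8 CPM) led, followed by the core protein UQCRC1 (145), the hinge protein UQCRH (140.2) and the core protein UQCRC2 (123). The Rieske iron-sulphur protein UQCRFS1 was lowest at 42.6. In complex I NDUFV1, which binds the NADH, had 165 CPM, NDUFA11 163, NDUFA13 134 and NDUFB9 128, and the accessory subunit NDUFA5 was lowest at 11 CPM. In complex II the flavoprotein SDHA had 94.2 and the iron-sulphur protein SDHB 82.6 CPM, while the membrane anchors SDHD and SDHC had 17.0 and 12.5.

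Conversion rates of the chain genes were low. The conversion rate is the share of T bases read as C, and its median over the 81 genes of at least 10 CPM was 2.29%, against 5.94% over all 6244 genes of that level. No unlabelled library was analysed here, so how much of a rate arises without the label is not known. A total of 76 of the 81 lay below the median of all genes, and 68 of 81 lay below 3.75%, the 25th percentile of all genes. For the 74 genes of complexes I to V alone the median was 2.20%, and 72 lay below the median of all genes. The ratio of the chain median to that of all genes ran from 0.329 in vehicle A to 0.420 in induced wild type C. Conversion falls with level in these data, so the same medians were taken within level classes chosen after the values were seen. From 10 to 50 CPM the chain median was 3.47% (16 genes) against 6.56% (4731 genes), from 50 to 100 CPM 2.56% (29 genes) against 4.40% (818), and from 100 to 200 CPM 1.96% (29 genes) against 3.40% (397). From 200 CPM up it was 1.92% (7 genes) against 1.86% (298), and 3 of the 7 lay below the median of that class. Across 79 chain genes with a length, Spearman's rho of conversion with mean CPM was -0.477, against -0.361 across 6060 genes. With spliced length it was 0.310, against 0.274, but with the longest transcript of each gene it was 0.092, against 0.214. These are descriptions across genes that share the same libraries.

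**Figure D2:**
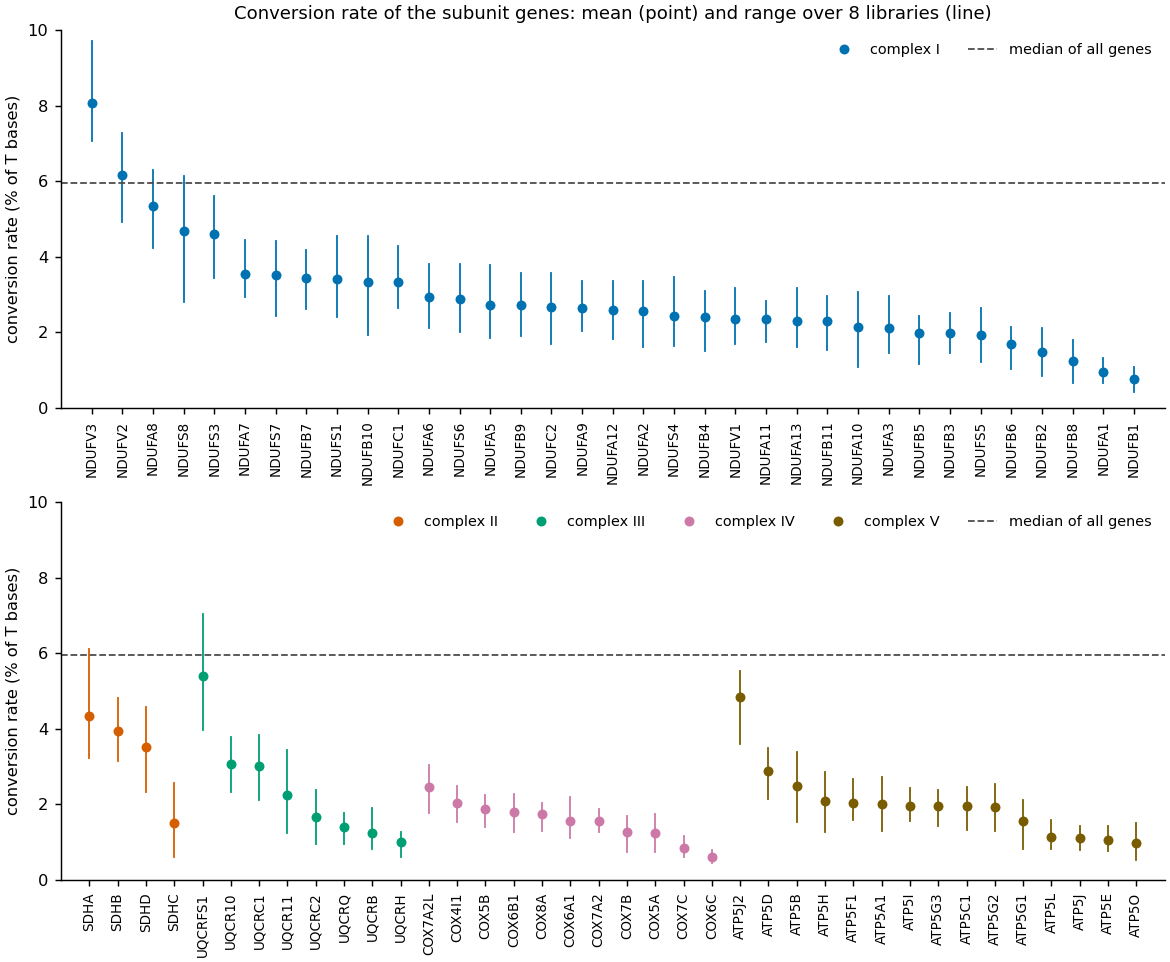
Conversion rate of the subunit genes with a mean of at least 10 CPM, 1 left out, in percent of T bases; points are means and lines the range over the 8 libraries, the dashed line is the median of all genes (5.94%). NDUFV3 (8.08%) and NDUFV2 (6.17%) are the subunit genes whose mean lies above the dashed line.

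Median conversion rates over the genes of a complex were 3.73% for complex II, 2.62% for I, 1.96% for both III and V, and 1.55% for IV. Complex II was highest and complex I next in 8 of 8 libraries, and complex IV was lowest in 7 of 8, the exception being vehicle A, where complex III was lowest (1.09% against 1.27%). Complexes III and V had no fixed order, with III above V in 6 of 8 libraries. The same genes are ranked in each library, only 4 of them in complex II. Median CPM ran in nearly the reverse order, at 49.8 for complex II, 66.1 for I, 123 for III, 157 for V and 183 for IV. Across 73 genes of complexes I to V, Spearman's rho of conversion with mean CPM was -0.486. Whether level accounts for the order of the complexes was not tested. Within complex I the 7 catalytic core subunits, which carry the flavin and iron-sulphur centres or the quinone site, had a median of 3.51% against 2.44% for the other 29, and lay above them in 8 of 8 libraries.

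**Figure D3:**
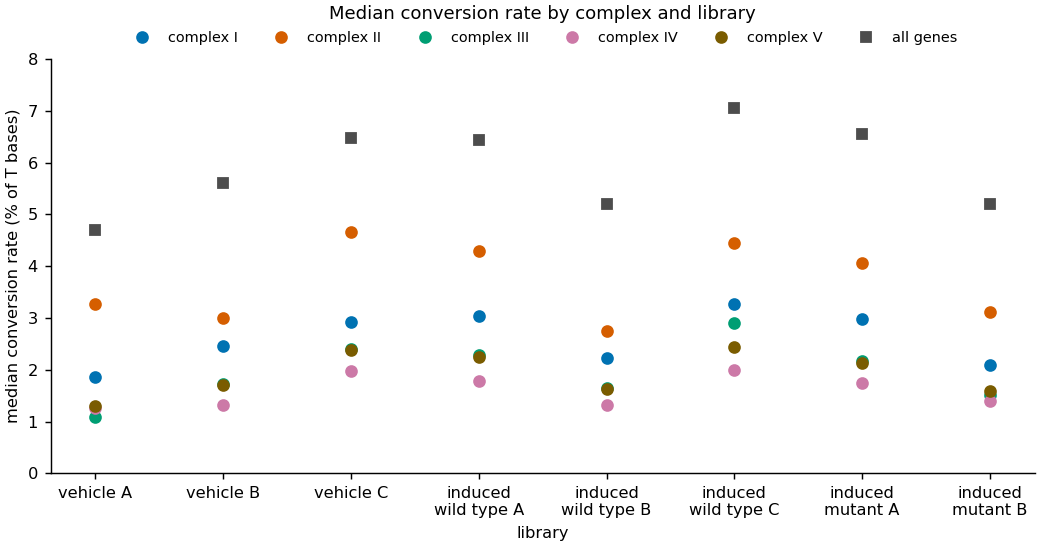
Median conversion rate of the genes of each complex (circles) and of all genes (squares) in each of the 8 libraries, in percent of T bases. All complexes lie below all genes in each library. All genes ran from 4.70% in vehicle A to 7.06% in induced wild type C, and complex II did not follow their order throughout, with 3.27% in vehicle A and 3.004% in vehicle B against 4.70% and 5.60% for all genes.

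The extremes by complex were these. NDUFV3, an accessory subunit of the NADH-binding module, had 7.07, 7.78 and 8.89% in vehicle A to C, 9.71, 7.52 and 8.74% in induced wild type A to C, and 7.30 and 7.65% in induced mutant A and B, with overlap between the groups. NDUFB1, a small membrane-arm subunit, was the lowest of complex I with a mean of 0.752%. COX6C had 0.441, 0.605 and 0.618%, then 0.644, 0.496 and 0.782%, then 0.660 and 0.513% in the same order, the lowest mean of all chain genes (0.595%), and its groups overlap. COX7A2L was the highest of complex IV at 2.45%. In complex II SDHA (4.35%) was highest and SDHC (1.504%) lowest, and in complex III UQCRFS1 (5.39%) and UQCRH (0.998%). In complex V ATP5J2, a subunit of the membrane part, was highest (4.84%) and ATP5O, which joins the stalk to the head, lowest (0.988%).

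Several of these rates touch genes whose reads may be shared with other loci. GENCODE 29 names 158 pseudogenes after the chain genes, 17 of them after COX6C, and the counting step is not given. ATP5EP2 had 116 CPM and 2.95% conversion beside 237 CPM and 1.06% for its parent ATP5E. Its rate hardly varied over the libraries, from 2.80% to 3.21%, or 1.15-fold from lowest to highest, while ATP5E varied 1.85-fold and the median chain gene 1.87-fold. ATP5L2 had 9.60% and varied 1.14-fold, beside 1.12% and 1.93-fold for ATP5L. Aligned to the best-matching GENCODE transcript of the parent, ATP5EP2 was 96.2% identical over 156 bases, and 1 of its 29 T bases (3.45%) faced a T-to-C difference. ATP5L2 was 93.1% identical over 476 bases, with a T-to-C difference at 7 of 135 T bases (5.19%). UQCRHL was 98.1% identical to UQCRH over 515 bases with 0 such differences of 136 T bases, and its conversion (1.02%) was close to that of UQCRH (0.998%). Whether shared reads set these rates was not tested. ATP5J2 overlaps the read-through gene ATP5J2-PTCD1, which had 199.8 CPM and 3.90% conversion, so that their reads cannot be told apart.

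The table of converted reads was deposited as FPKM, and whether those values were divided by length was not settled here, so levels between genes are not compared in it. The highest deposited values were those of the read-through gene ATP5J2-PTCD1 (97.8), ATP5J2 (50.1) and NDUFA11 (19.4). ATP5J2 had 62.3, 54.0 and 42.7 FPKM in vehicle A to C, 48.5, 56.1 and 34.0 in induced wild type A to C, and 43.3 and 60.0 in induced mutant A and B, and the groups overlap. ATP5EP2, UQCRHL and ATP5L2 were listed at 0 in all 8 libraries despite 14.5 to 116 CPM in all reads. Of the 10 genes not in that table, COX6C (153 CPM) and COX4NB (EMC8, not a chain subunit, 32.3 CPM) had at least 10 CPM in all reads.

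No chain gene passed the test in any of the 3 comparisons. The test was limma on all genes of each table with Benjamini-Hochberg adjustment, passing below 0.05. In all reads 0 of 83 chain genes passed for induced wild type against vehicle, where 0.00% of the 12414 genes tested passed, and 0 of 83 for induced mutant against vehicle and for induced wild type against induced mutant, where 0.0322% of genes passed in each. In converted reads 0 of 60 passed in each comparison, beside 0.00%, 0.401% and 0.00% of 5737 genes in the same order. In conversion rate 0 of 81 passed in each, beside 0.00% of 6244 genes in all 3. At an unadjusted p below 0.05 by limma there were 0 chain genes in all reads in each comparison, beside 116, 467 and 341 of all 12414 genes. In converted reads there were 1, 3 and 4 chain genes, beside 455, 678 and 169 of 5737 genes. In conversion rate there were 1, 4 and 1, beside 271, 511 and 283 of 6244 genes. With edgeR and DESeq2 on the whole reads recovered from CPM, 0 chain genes passed as well. With the shares passing after adjustment near 0 in all genes too, a count of 0 says nothing particular to the chain genes. HMGN1, the induced gene, did not pass for induced wild type against vehicle in all reads or conversion rate either. In both measures its values were nonetheless higher in every induced wild-type library than in any vehicle library. In bulk RNA, fewer cells with a transcript and less RNA per cell cannot be told apart.

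In all reads most chain genes had values below those of the compared group. For induced wild type against vehicle, 76 of 83 had a log2 fold change below 0, with a median of -0.21, against 32.4% of all genes and a median of 0.09. The medians were -0.23 for complex I, -0.12 for II, -0.18 for III, -0.23 for IV and -0.20 for V, and all 34 tested genes of complexes III, IV and V were below 0. The libraries did not overlap between the groups for 3 chain genes that were lower (3.61%, against 1.49% of all genes) and 1 that was higher (1.2%, against 2.53%). Named after their values were seen, the lower ones were ATP5A1 (-0.20), ATP5J (-0.15) and NDUFC1 (-0.25), and the higher one NDUFA4L2 (0.29), at 1.57 to 1.82 CPM in vehicle and 1.88 to 2.50 CPM in induced wild type. For induced mutant against vehicle 70 of 83 (84.3%) were below 0 with a median of -0.12, against 57.5% of all genes and a median of -0.04. For induced wild type against induced mutant 66 of 83 (79.5%) were below 0 with a median of -0.08, against 26.7% of all genes and a median of 0.12. These comparisons share libraries and are not independent of each other.

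**Figure D4:**
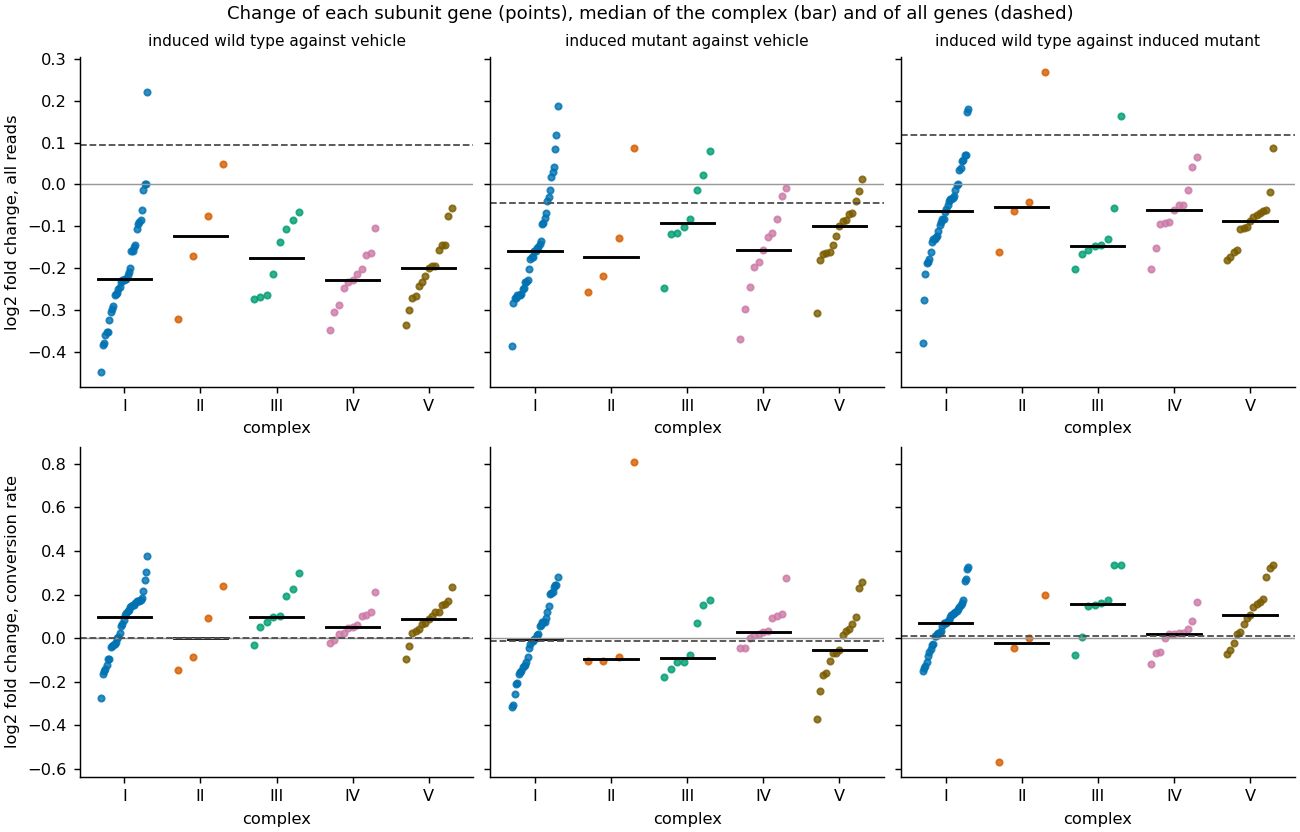
Log2 fold changes of each subunit gene in all reads (top row) and in conversion rate (bottom row) for the 3 comparisons, by complex; bars are the median of the complex and the dashed line is the median of all genes tested. In the top left panel the complex medians lie between -0.23 and -0.12 with all genes at 0.09, and no point passed the test.

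The lean in all reads went with single libraries. Per gene, the value of each library was taken as a deviation from the gene's mean on the log2 scale. The median deviation of the chain genes was 0.409 in vehicle A, where that of all genes was -0.285, and -0.318 in induced wild type C, where that of all genes was 0.308. The other 6 libraries lay between -0.243 (induced mutant A) and 0.197 (induced mutant B). Of the 81 genes of at least 10 CPM, 60 (74.1%) were highest in vehicle A and 49 (60.5%) lowest in induced wild type C, against 18.0% and 11.0% of 6244 genes. In conversion the same libraries stood at the opposite ends, with vehicle A lowest (-0.402, all genes -0.302) and induced wild type C highest (0.368, all genes 0.257). The part of these library differences in the result was not tested. The median of the chain genes for induced wild type against vehicle was -0.059 with vehicle A left out and -0.095 with induced wild type C left out, beside -0.039 and -0.016 for all genes. For induced mutant against vehicle it turned to 0.005 without vehicle A and to 0.097 without induced mutant A, and was -0.333 without induced mutant B. For induced wild type against induced mutant it turned to 0.044 without induced wild type C and to 0.156 without induced mutant B, and was -0.292 without induced mutant A. With the median of all tested genes set to 0 in each library, the chain medians were -0.353, -0.128 and -0.218 for the 3 comparisons, beside -0.051, -0.049 and -0.022 for all genes.

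**Figure D5:**
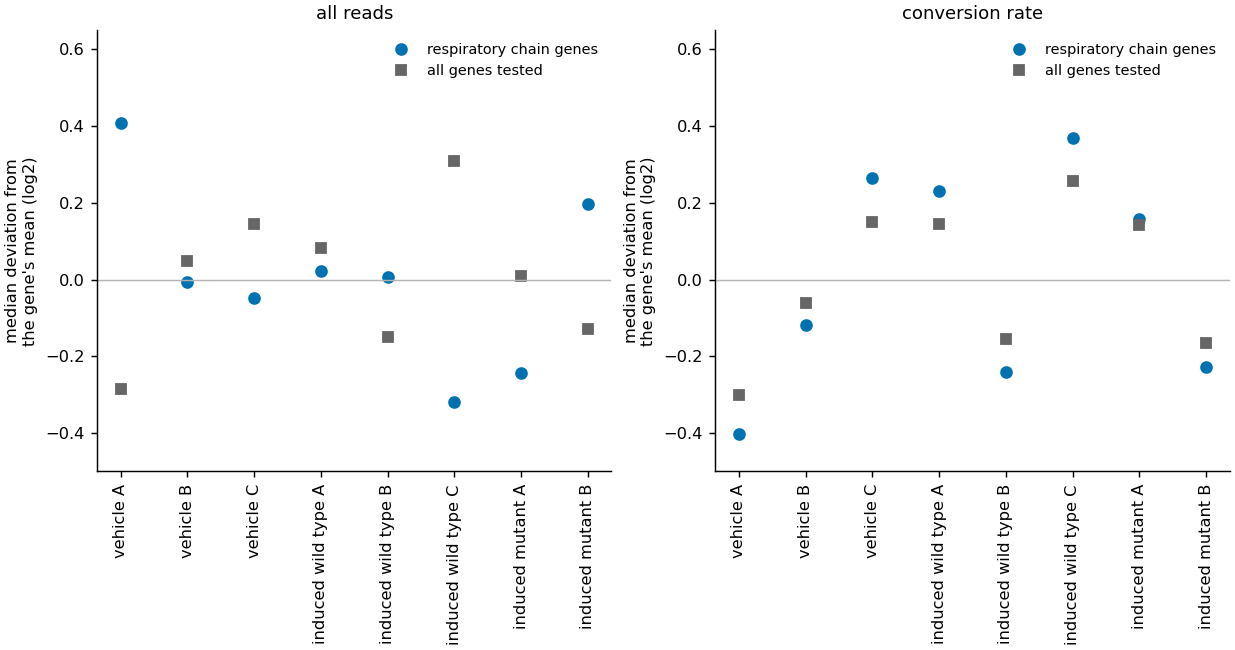
Median deviation of the chain genes (circles) and of all genes tested (squares) from each gene's mean over the 8 libraries, on the log2 scale, for all reads (left) and conversion rate (right). In all reads vehicle A (0.409) and induced wild type C (-0.318) stand at opposite ends for the chain genes, and in conversion rate they stand the other way round.

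Chain genes did not all follow this order of libraries. The ratio of the highest to the lowest library had a median of 1.71 over the 81 genes, close to the 1.70 of all 6244 genes. It was 1.83 for complex IV, 1.75 for I, 1.68 for V, 1.63 for III and 1.61 for II. The delta subunit ATP5D of ATP synthase varied most, at 124, 70.5 and 65.4 CPM in vehicle A to C, 73.5, 83.3 and 46.0 in induced wild type A to C, and 57.9 and 94.6 in induced mutant A and B. Its 3 groups overlap, and NDUFB11 (2.66-fold), NDUFA13 (2.51-fold) and NDUFA11 (2.46-fold) came next, each highest in vehicle A and lowest in induced wild type C. At the other end, ATP5B varied 1.19-fold, NDUFA10 1.22-fold, NDUFA12 1.22-fold, ATP5C1 1.22-fold, and ATP5J and SDHA 1.24-fold. Across 79 chain genes Spearman's rho between this ratio and spliced length was -0.346, while across 6060 genes it was 0.375. With the longest transcript the values were -0.229 and 0.383. These are descriptions across genes of the same 8 libraries.

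The chain genes with the smallest p in each direction did not pass after adjustment in any comparison. In all reads NDUFA5 had 13.9, 12.3 and 11.2 CPM in vehicle A to C, 11.5, 6.76 and 8.84 in induced wild type A to C, and 10.4 and 13.4 in induced mutant A and B. Its log2 fold change for induced wild type against vehicle was -0.45 (SE 0.23, adjusted p = 0.992), and vehicle C and induced wild type A overlap. NDUFS3 (-0.30) was next lower, and NDUFA4L2 (0.29) and NDUFV3 (0.22) were the higher ones. For induced mutant against vehicle these were COX7A2L (-0.37) and NDUFB6 (-0.28), with NDUFV2 (0.19) and COX4NB (0.13, EMC8 and not a chain subunit) higher. For induced wild type against induced mutant they were NDUFA5 (-0.38) and NDUFS1 (-0.27), with SDHC (0.27) higher.

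In converted reads, which weight RNA made during the labelling, the medians of 60 chain genes were -0.06, -0.06 and 0.10 for induced wild type against vehicle, induced mutant against vehicle and induced wild type against induced mutant. Those of all genes were 0.23, 0.17 and 0.04. The chain median for induced wild type against vehicle was 0.037 without induced wild type B and -0.001 without vehicle B, and that for induced wild type against induced mutant was -0.047 without induced mutant A. NDUFV1 had 12.6, 15.6 and 12.9 FPKM in vehicle A to C, 12.2, 12.7 and 13.7 in induced wild type A to C, and 8.33 and 6.81 in induced mutant A and B. Both mutant libraries lie below all others, and the log2 fold change was -0.78 (SE 0.28) against vehicle with an adjusted p of 0.277 by limma. For induced wild type against induced mutant it was 0.70 (SE 0.28), with an adjusted p of 1.00 by limma. In all reads NDUFV1 had a log2 fold change of -0.18 for induced mutant against vehicle, with overlap between the groups.

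COX5B had 2.11, 2.53 and 0.680 FPKM in vehicle A to C, 1.11, 1.95 and 1.65 in induced wild type A to C, and 0.280 in induced mutant A, and it was listed at 0 in induced mutant B. Its log2 fold change for induced mutant against vehicle was -1.22 (SE 0.46, adjusted p = 0.303), and for induced wild type against induced mutant 1.17 (SE 0.46, adjusted p = 1.00). In that last comparison NDUFS1 (-1.10) and NDUFB10 (-1.07) were the lower ones. The higher ones for induced mutant against vehicle were NDUFA10 (0.71) and NDUFB8 (0.69), and for induced wild type against vehicle ATP5A1 (0.86) and NDUFA10 (0.75), with COX7A2 (-0.88) and ATP5G3 (-0.70) lower. NDUFA10 had 2.10 FPKM in vehicle A and 7.80 to 13.7 in the other 7 libraries, so that vehicle A alone stands low.

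In conversion rate, with the median of all tested genes set to 0 in each library, the medians of 81 chain genes were 0.06, -0.0042 and 0.06 for the same 3 comparisons, beside -0.00095, -0.013 and 0.012 for all genes. The first ran from 0.010 without vehicle A to 0.132 without vehicle C, the second turned to 0.079 without vehicle C and to 0.030 without induced mutant B, and the third ran from 0.028 without induced wild type A to 0.117 without induced wild type B. For induced wild type against induced mutant 58 of 81 (71.6%) were above 0, against 53.7% of all genes, and the groups did not overlap for 15 that were higher (18.5%, against 11.0% of all genes) and 2 that were lower (2.47%, against 9.06%). The higher ones were 6 genes of complex I, 4 of complex III, 4 of complex V and 1 of complex II, and the lower ones, named after their values were seen, were SDHC and COX7A2. NDUFV2, a core subunit with an iron-sulphur centre, had 5.73, 5.84 and 6.88% in vehicle A to C, 6.81, 6.46 and 7.28% in induced wild type A to C, and 5.44 and 4.91% in induced mutant A and B. The mutant libraries lie below the other 6. Its log2 fold change was 0.32 (SE 0.12, adjusted p = 0.999) for induced wild type against induced mutant and -0.31 (SE 0.12, adjusted p = 0.532) for induced mutant against vehicle.

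SDHC, a membrane anchor of complex II, had 0.615, 1.05 and 1.69% in vehicle A to C, 1.88, 0.702 and 2.0% in induced wild type A to C, and 2.56 and 1.54% in induced mutant A and B. The deposited rates overlap between the groups, at 89 to 221 reads a library, and the centred ones of mutant and vehicle do not. Its log2 fold change was 0.81 (SE 0.33, adjusted p = 0.569) for induced mutant against vehicle and -0.57 (SE 0.33, adjusted p = 0.999) for induced wild type against induced mutant. NDUFA8, a complex I subunit, was at -0.30 for induced mutant against vehicle and -0.27 for induced wild type against vehicle. The remaining genes of smallest p were NDUFB6 (0.24) for induced mutant against vehicle, NDUFA13 (0.27), NDUFB2 (0.38) and NDUFC1 (-0.16) for induced wild type against vehicle, and ATP5I (0.34) and NDUFB11 (-0.14) for induced wild type against induced mutant.

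Other genes of the pathway were taken from lists, and 0 genes of these lists passed in any comparison or measure. Of 8 further genes of the chain outside the symbol rule, ATPIF1, the ATP synthase inhibitor, had 127 CPM and C14orf2, a small ATP synthase subunit, 105. Their median conversion was 2.59%, and 7 of 8 were below 0 in all reads for induced wild type against vehicle, with a median of -0.16. Of 32 assembly factors 23 had at least 10 CPM, led by LRPPRC (66.8), which binds mitochondrial mRNA, and ECSIT (43.6), with a median conversion of 5.59%. In the same comparison 17 of 32 were below 0, with a median of -0.0035. Of 14 tricarboxylic acid cycle genes MDH2 (227) and IDH2 (208) led, the median conversion of 12 was 3.03%, and 6 of 13 tested were below 0 (median 0.02). Of 15 genes of mitochondrial transcription and biogenesis POLG (65.5), the mitochondrial DNA polymerase, and POLRMT (38.9), the RNA polymerase, led. The median conversion of 10 was 8.56%, and 1 of 13 tested was below 0 (median 0.17). Summed CPM of these 15 was 192, 297 and 319 in vehicle A to C, and 293, 237 and 355 in induced wild type A to C. Vehicle A was the lowest library. Of all genes 32.4% were below 0 in this comparison, with a median of 0.09. The coactivator PPARGC1A had 0.0623 CPM. Symbols of the mitochondrially encoded subunits were not found in the table, and those genes were not analysed here.

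The depth was 7985544 to 17747784 reads a library, of which 3401766 to 7789396 lay in the gene rows used. HMGN1 itself had 145 to 191 CPM with vehicle. It had 217 to 317 CPM with the wild-type transgene induced and 199.5 to 223 CPM with the mutant one. Vehicle overlapped with neither induced group. Of all genes, 2.53% were likewise higher without overlap for the wild type against vehicle, and 4.58% for the mutant against vehicle. HMGN1 did not pass for induced wild type against vehicle in all reads or in conversion rate, where 0 of 12414 and 0 of 6244 genes passed. All 11 precursor B markers found in the table, PAX5 among them, had at least 10 CPM, summing to 1554 to 1837 CPM. The 5 T cell, 4 erythroid and 3 fibroblast markers each had a mean below 1 CPM, and of 5 myeloid markers LYZ alone was above it (1.47). Of all these markers PAX5 alone passed a test, being higher in converted reads for induced mutant against vehicle, and it did not pass without limma's variance trend.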

How the data were processed

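RNA of 8 SLAM-seq libraries was analysed from a deposited table of all reads and a deposited table of converted reads, both per RefSeq transcript. A stranded mRNA kit and 4 µg of RNA were used, per the labels, and the reads were placed on hg19 (GRCh37), per the submitters' processing notes. The aligner, the caller of conversions, the counted region and the strand setting were not given in the sources used here. All-read values carry the name CPM in the deposited headers and were handled as a signal, because rows of different transcripts repeat reads. Whole reads could be recovered for 100.0% of values (within 0.1 read). The conversion columns were deposited as a fraction. In 12527 of 29863 rows with a single read the rate lay strictly between 0 and 1, so bases and not reads are counted. Converted reads were deposited as FPKM.

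Each gene took its row with the highest mean, and of the 89 genes 27 had several rows, all identical for 20. A further 76 rows without a symbol belong to these genes and were at most 1.03 times as high as the row used. Members and lists were chosen with earlier results of these data known, and ATP5L2 was set apart after its name was seen. The genes named are, per complex, the 4 highest and the lowest by CPM, the extremes of conversion, those of smallest p per comparison, the 3 highest in converted reads, the isoform pairs and the 2 most abundant of each further list. ATP5D, ATP5E and its copies, the genes of smallest range over libraries, COX6C and PPARGC1A outside these roles, and the promoters shown were chosen after values were seen. The rule also chose 1 gene that is not reported here by name, in the text or in the plots of single genes, and it stays in all counts and medians.

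limma 3.58.1 (R 4.3.3) was fitted on all 8 libraries without covariates to log2(CPM + 1) and log2(FPKM + 1), each for genes with a mean of at least 1, and to log2(percent + 0.1) for genes of at least 10 CPM with each library's median set to 0, so fold changes of low genes are understated. The variance trend of limma, which the design did not fix, was adopted after both fits were seen. Without it the 23 calls over all genes in converted reads for induced mutant against vehicle became 0, and no chain gene passed either way. That fit, edgeR 4.0.16 and DESeq2 1.42.0 on recovered reads, other filters and pseudocounts, the replicate block and each left-out library were alternatives. The fits were also run on simulated data, with genes drawn independently and no shifts shared by the genes of a library. That run does not show how the fits behave with the library differences seen here. A spliced length is the median over GENCODE 29 basic protein-coding transcripts, a definition adopted after a first one gave overlong ends, and 79 of 81 genes had one. No coordinates of GRCh38 were used with the files. Python 3.11.15, pandas 2.3.3, numpy 2.4.6, matplotlib 3.10.9 and biopython 1.88 were used.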

Additional observations from a re-analysis of the deposited data

How the results depend on the processing

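No chain gene passed in any of the 123 alternative counts. Of 123 alternative medians of the chain genes, 7 moved by more than the spread between libraries, all on the log2 scale. That spread, an SD of the chain median over the libraries of a group, differed by measure. It was 0.224 to 0.273 in all reads and 0.050 to 0.085 in converted reads. None of the 7 was in all reads, where medians could change sign and still lie within the spread. With library medians set to 0, the median in converted reads was -0.396 (induced wild type against vehicle) and -0.324 (induced mutant against vehicle), with all genes at -0.107 and -0.097. With no centring of the libraries, the median in conversion rate for induced wild type against vehicle was 0.219, with all genes at 0.153.

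Leaving out 1 library gave medians in converted reads of -0.086 to 0.037 for induced wild type against vehicle, -0.130 to -0.007 for induced mutant against vehicle, and -0.047 to 0.139 for induced wild type against induced mutant. The first turned to 0.037 without induced wild type B and the third to -0.047 without induced mutant A. In all reads the ranges were -0.284 to -0.059, -0.333 to 0.097 and -0.292 to 0.156 in the same order, and in conversion rate 0.010 to 0.132, -0.052 to 0.079 and 0.028 to 0.117. The lone mutant library left in some of these fits is assumed to vary like the other groups.

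With the replicate block (letters A to C) the median in all reads was -0.208 against vehicle in both induced groups and 0.024 for induced wild type against induced mutant, and no chain gene passed. No source says what the letters share, and not every same-letter correlation of deviations was over 0.1 in any measure, so the letters were not taken to pair the libraries. Between vehicle and induced wild type these were 0.287, -0.356 and 0.649 for A, B and C in all reads, 0.104, -0.102 and 0.287 in converted reads, and 0.040, 0.141 and 0.312 in conversion rate. Between induced wild type and induced mutant those of A and B were -0.361 and 0.589 in all reads, -0.148 and 0.151 in converted reads, and 0.151 and 0.381 in conversion rate.

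Counts over all genes moved both ways. In converted reads for induced mutant against vehicle, 23 of 5737 genes passed. That count was 0 without limma's variance trend (an alternative added after the data were seen), 1 with a pseudocount of 0.1, 1 with only the 2 groups fitted, 41 with library medians set to 0 and 149 with the replicate block. Leaving out 1 library gave 0 (without vehicle B or induced mutant A) to 68 (without vehicle C). In all reads the 4 passing for induced mutant against vehicle became 75 with DESeq2 and 14 with only the 2 groups fitted, and the 4 passing for induced wild type against induced mutant became 13 with DESeq2. The cause of these movements was not tested. Counting depth limits the least abundant genes most, such as NDUFA5 (at least 54 reads a library) and SDHC (at least 89).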
